A study of Mus musculus with 6 samples.

Results

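The 50 genes described here act in G2 phase and mitosis, the stages in which a cell with copied DNA condenses its chromosomes, attaches them to the spindle and divides. They were listed by name, with earlier results of these data known, and all 50 were found in a table of 54838 mouse genes. RNA was measured in acute myeloid leukemia (AML) cells sorted from mice given AG636 or Vehicle, and the comparison asked which of these genes differed between the treatments. All 50 genes had enough counts to be tested, with totals over the 6 samples from 299 counts for *Cdc25c* to 28434 for *Top2a*.

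Both groups held I1DN leukemias, which carry IDH1R132H, DNMT3AR882H and NrasG12D on a C57BL/6 background, so the Vehicle mice shared all 3 alleles with the treated mice. The model was made by transducing blood stem and progenitor cells of fetal liver with constructs for the 3 alleles, and frozen cells of a moribund animal were then transplanted into Ptprca recipients after a sublethal dose of irradiation, which leaves a host with blood cells of its own. AG636, an inhibitor of dihydroorotate dehydrogenase in the de novo pyrimidine pathway, was given orally at 100 mg/kg 2 times a day to 3 mice, and 3 mice received Vehicle. The labels give no age and no duration, and the study's texts are not uniform about the latter. Leukemic cells were sorted from marrow and spleen as cKit+CD11b- cells by one passage of the study and as cKit-high CD11b-low cells by another, and the labels do not say which organ each sample came from. Libraries captured the 3′ end of polyadenylated transcripts, and a longer gene does not gain counts by its length. Totals lay between 4634963 and 7906589 counts per sample, at which 3 counts correspond to 0.392 to 0.637 CPM (counts scaled to a common library total, with TMM factors, edgeR's correction for library composition), and the 50 genes took from 0.780% to 0.947% of the counts. Because these are bulk samples, a change in the share of cells in G2 or mitosis and a change in RNA per cell cannot be told apart.

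Entry into mitosis is driven by cyclin-dependent kinase 1 bound to cyclins A and B, which CDC25 phosphatases activate and WEE1 holds back. The spindle checkpoint then delays chromosome separation until every kinetochore is attached, after which the anaphase-promoting complex (APC/C) marks securin and cyclin B for destruction and the central spindle guides cytokinesis. Transcripts of most of these genes are low in G1 and accumulate in G2, under the DREAM and MuvB complexes with B-MYB and FOXM1, which act at a cell cycle genes homology region (CHR) and at CCAAT boxes bound by NF-Y, whereas genes of DNA replication peak earlier, mostly through E2F sites. Leukemic progenitors normally divide often, and mitotic transcripts are a common readout of their proliferation.

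RefSeq promoter windows of GRCm38.p6, each 300 bases long with 250 before and 50 after the annotated start, were available for 42 of the 50 genes, 3 of which (*Bub3*, *Prc1* and *Ect2*) had 2 windows, and a gene was counted where any of its windows held the letters. Both strands were searched for the letters TTTGAA, the core of the CHR, for CCAAT, and for the E2F-like letters TTTCCCGC, TTTGGCGC, TTTCGCGC and TTTGCCGC. None of these strings of letters contains another. The CHR letters were present in 30 of the 42 genes (71.4%), against 20.2% of all 27025 genes in the promoter table. Between 60 bases before and 50 after the start, 61.9% of the 42 genes held them, against 6.36% of all genes. CCAAT was found in 32 genes (76.2%, against 41.1%), and both motifs in 27 (64.3%, against 8.97%). CCAAT was not particular to the 42 genes, as 64.1% of 39 DNA replication genes and 63.5% of 63 other G2/M and mitosis genes (described below) held it. Of those 63 genes, 50.8% held the CHR letters. E2F-like letters were found in 3 of the 42 genes (7.14%, against 2.61% of all), whereas 41.0% of the 39 DNA replication genes with a window held them and 12.8% of those held the CHR letters. These are matches of letters only, and windows were not tested for binding of any factor.

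The stretches below run from 100 bases before to 12 after the start on the gene's own strand, with CHR and CCAAT letters (or ATTGG, the latter's reverse complement) in capitals. They are shown because they present the common layout, a CCAAT box upstream of a CHR next to the start, in 3 genes that were higher with AG636 (*Ccnb2*, *Cenpf* and *Kif23*) and in 2 that did not pass the test (*Cdc20* and *Racgap1*), beside *Nusap1*, which was higher and held neither motif in its window. They lie at chr9:70421543-70421654 (minus strand), chr1:189688075-189688186 (minus), chr9:61946788-61946899 (minus), chr4:118437332-118437443 (minus), chr15:99651645-99651756 (minus) and chr2:119618198-119618309 (plus), all in GRCm38.p6.
Ccnb2: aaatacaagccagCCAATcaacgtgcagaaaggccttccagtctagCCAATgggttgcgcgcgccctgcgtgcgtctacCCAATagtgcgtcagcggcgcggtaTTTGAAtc
Cenpf: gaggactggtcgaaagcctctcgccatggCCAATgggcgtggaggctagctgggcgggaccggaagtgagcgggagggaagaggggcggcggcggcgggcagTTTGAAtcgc
Kif23: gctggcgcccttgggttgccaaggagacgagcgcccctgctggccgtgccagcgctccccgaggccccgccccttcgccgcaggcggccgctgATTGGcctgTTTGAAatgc
Cdc20: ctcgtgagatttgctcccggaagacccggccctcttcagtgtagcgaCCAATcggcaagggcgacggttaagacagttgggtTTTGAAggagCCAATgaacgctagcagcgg
Racgap1: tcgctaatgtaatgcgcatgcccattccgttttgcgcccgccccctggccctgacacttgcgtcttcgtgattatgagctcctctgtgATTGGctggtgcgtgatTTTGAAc
Nusap1: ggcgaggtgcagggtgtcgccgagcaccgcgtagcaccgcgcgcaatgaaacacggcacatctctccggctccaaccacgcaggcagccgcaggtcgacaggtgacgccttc

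Counting the first transcribed base as 1, the CHR began at base 5 in *Ccnb2*, at base 3 in *Cenpf* and *Kif23*, at base 6 in *Racgap1* and 18 bases before the start in *Cdc20*. The 3 CCAAT boxes of *Ccnb2* began 87, 54 and 21 bases before the start. Of the 9 genes that were higher with AG636, 6 had CHR letters in the window, and of the 33 other genes with a window 24 had them. Both sets thus held genes with and without these letters.

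**Figure D1:**
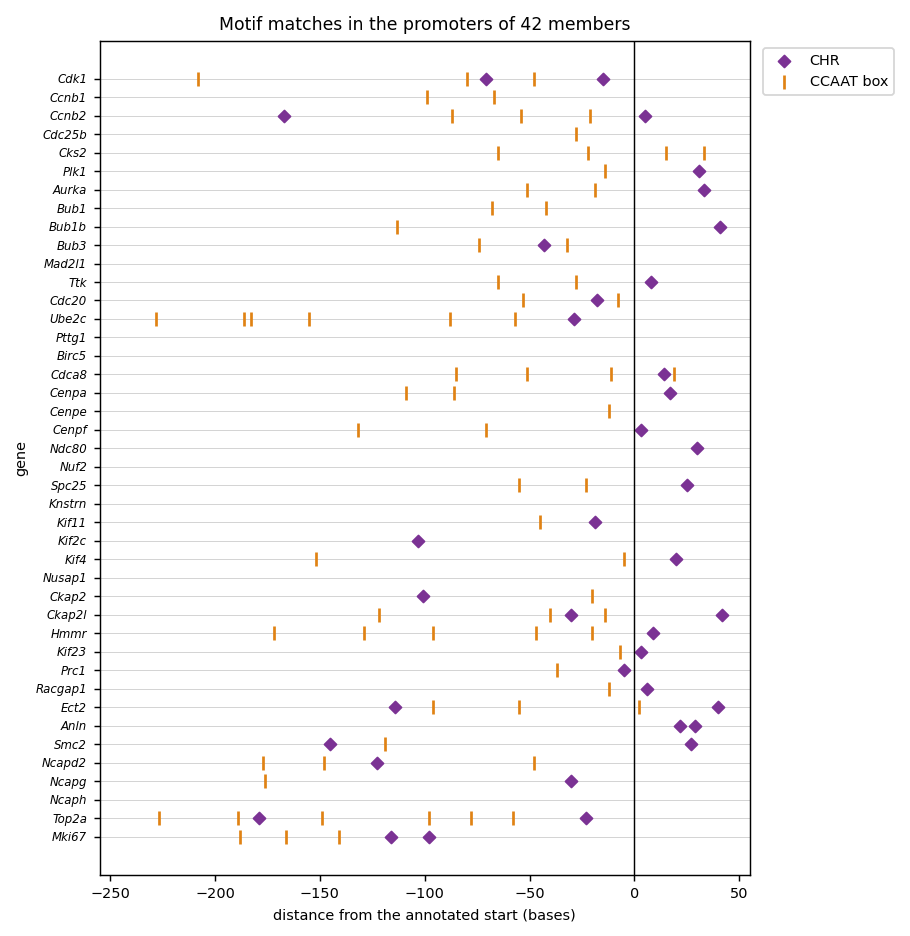
Position of CHR letters (diamonds) and CCAAT letters (bars) on either strand in the RefSeq promoter windows of 42 mitosis and G2/M genes (the first window listed where a gene had 2), in bases from the annotated start (vertical line). Of the 42 genes, 30 held CHR letters and 26 held them between 60 bases before and 50 after the start.

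AG636-treated cells had higher levels of 9 of the 50 genes at an adjusted p under 0.05 (edgeR's quasi-likelihood test, Benjamini-Hochberg over 11092 genes), and 0 were lower. In order of adjusted p these were *Nusap1*, *Ccnb2*, *Cdc25b*, *Kif23*, *Cenpf*, *Ncapd2*, *Kif2c*, *Ckap2l* and *Ncaph*, with log2 fold changes between 0.39 and 0.72. They belong to spindle assembly, the cyclin-CDK module, the kinetochore, the central spindle and condensin, so no single step of mitosis held them all. The share of 18.0% stands beside 10.3% of all genes tested that were higher, while 11.0% of all genes were lower. The count of 0 lower genes was also found with DESeq2 and limma-voom. At an unadjusted p under 0.05 in edgeR, 4 of the 50 genes had negative log2 fold changes and 13 positive ones. Over all 11092 genes tested, 2041 had negative and 2071 positive ones at that p. Over all 50 genes the log2 fold change was positive for 36 and negative for 14, against 5801 and 5291 over all genes tested. The median of the 50 was 0.16 (quartiles -0.03 and 0.34) against a median of 0.03 over all genes tested. No change was larger than 0.72 in either direction, and the median standard error was 0.14.

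With library size alone, CPM of the 3 AG636 mice lay entirely above those of the 3 Vehicle mice for 21 genes and entirely below for 1. The shares over all genes are not given for that scaling. With TMM they lay entirely above for 14 genes (28.0%, against 20.5% of all genes tested) and entirely below for 5 (10%, against 20.6%). An exact two-sided permutation test of 3 against 3 cannot give less than p = 0.1, which is the value for each of these 19 genes. Scaling by library size alone, which moved the median of all genes tested from 0.03 to 0.12, gave 12 higher and 0 lower genes among the 50, 13.4% higher and 8.23% lower genes over the whole table, and a median of 0.25 over the 50. The count of 9 rested on all 6 mice: it was 4 without Vehicle replicate 1, 1 without Vehicle replicate 2, 4 without AG636 replicate 1, 3 without AG636 replicate 2 and 1 without AG636 replicate 3, and 7 without Vehicle replicate 3. *Nusap1* was the gene that passed the threshold in all 6 of these fits, with *Ccnb2* passing in 4 and *Ncapd2* in 0.

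**Figure D2:**
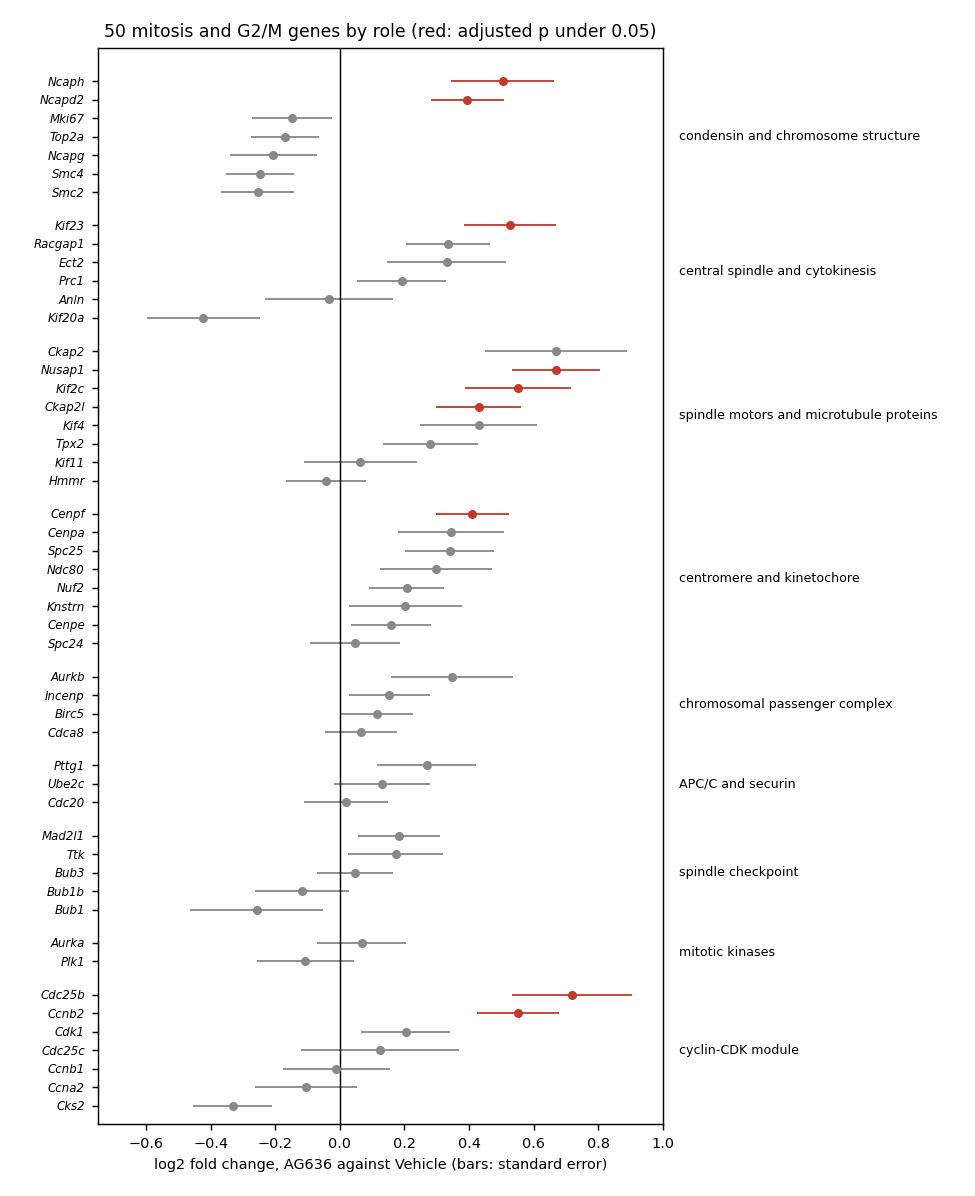
Log2 fold change of AG636 against Vehicle for the 50 genes in groups by role, with bars of 1 standard error from edgeR; red points have an adjusted p under 0.05. The 9 red points lie between 0.39 and 0.72, and the lowest gray point, *Kif20a*, lies at -0.42.

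Among the 7 genes of the cyclin-CDK module, 2 rose and 5 did not pass the test, and the median log2 fold change was 0.12. *Ccnb2*, on chromosome 9 from 70407692 to 70421547 (mm10), encodes cyclin B2, a partner of CDK1 that is found largely at the Golgi. It had 149, 125 and 150.0 CPM in the Vehicle mice and 185, 216 and 219.5 CPM in the AG636 mice. Every AG636 mouse was above every Vehicle mouse, and the lowest treated value was in replicate 1. The means were 141 ± 14.0 and 207 ± 18.9 CPM (SD, n = 3), a log2 fold change of 0.55 (SE 0.13, edgeR adjusted p = 0.0159). *Cdc25b*, on chromosome 2 from 131186949 to 131198497, encodes the phosphatase that first activates CDK1 before mitosis. Vehicle mice had 29.1, 35.6 and 34.5 CPM of *Cdc25b* and AG636 mice 46.1, 48.7 and 68.3 CPM. The groups did not overlap, and AG636 replicate 3 stood above the other two treated mice. Its log2 fold change of 0.72 (SE 0.18, edgeR adjusted p = 0.0234) was the largest of the 50 genes.

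Other genes of the module gave smaller differences. *Cdk1*, the kinase itself, had 355, 278 and 389 CPM with Vehicle and 362, 407 and 408 CPM with AG636. The groups overlapped, since Vehicle replicate 3 exceeded AG636 replicate 1, and the log2 fold change was 0.20 (SE 0.14, edgeR adjusted p = 0.309). *Ccnb1*, the main mitotic cyclin, had 189, 148 and 152 CPM with Vehicle and 131, 198 and 156 CPM with AG636, a log2 fold change of -0.01 (SE 0.17, edgeR adjusted p = 0.972) that was 0.08 with library size alone. AG636 mice held both the highest and the lowest value. *Cks2*, a small CDK-binding subunit, was the gene of this module with the lowest value, at 275, 217 and 247 CPM with Vehicle and 191, 190.3 and 205 CPM with AG636. Its groups did not overlap, but the log2 fold change of -0.33 (SE 0.12, edgeR adjusted p = 0.0759) did not pass the threshold. *Ccna2*, cyclin A2, had a log2 fold change of -0.11 (SE 0.16, edgeR adjusted p = 0.659), and its exons overlap those of *Exosc9* on the opposite strand, which had 1583 counts against 5377 for *Ccna2*. The use of strand in counting is not given in the sources used here, so reads of such pairs may be divided. *Cdc25c*, a related phosphatase, was the sparsest of the 50, at 9.81, 8.76 and 7.52 CPM with Vehicle and 8.50, 11.5 and 8.49 CPM with AG636. Its groups overlapped, with a log2 fold change of 0.12 (SE 0.24, edgeR adjusted p = 0.743) and a 95% interval from -0.42 to 0.67.

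**Figure D3:**
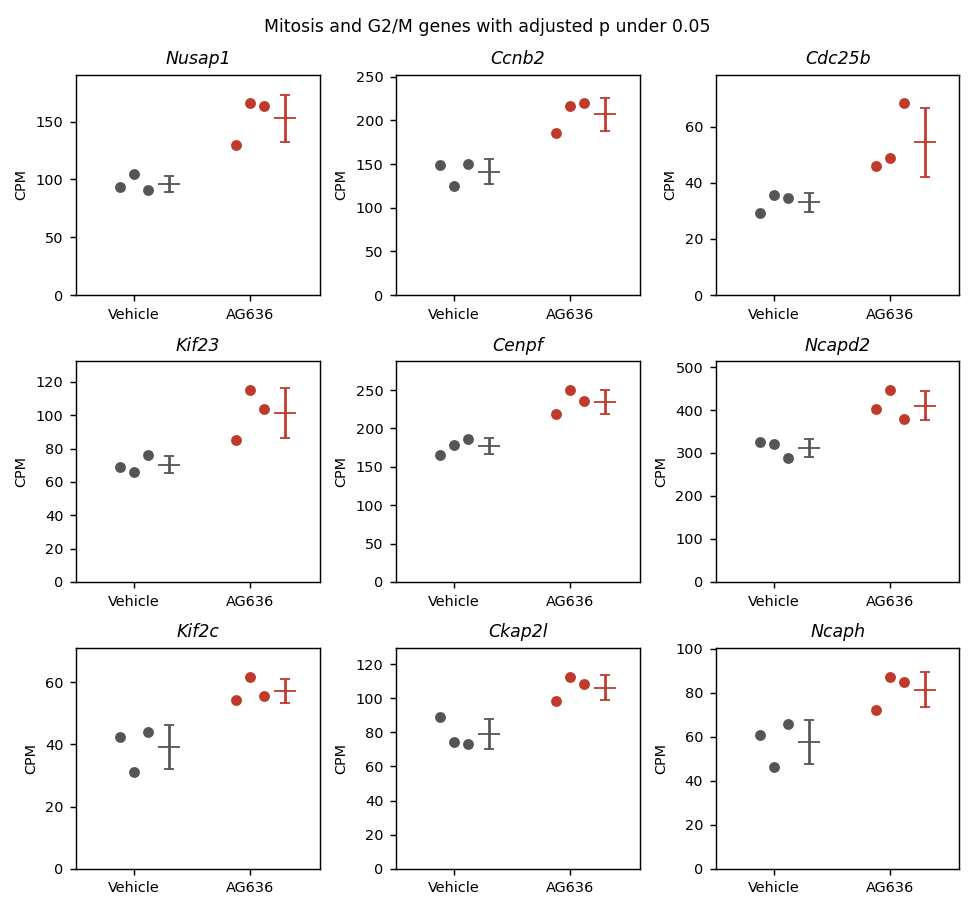
CPM of the 9 genes with an adjusted p under 0.05 in each mouse (points, replicates 1 to 3 from left to right), with mean and SD (n = 3) beside each group, on axes that start at 0. In all 9 panels the lowest AG636 mouse lies above the highest Vehicle mouse.

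Kinases of early mitosis, the spindle checkpoint, the APC/C with securin and the chromosomal passenger complex held 14 genes. Of these, 0 passed the threshold in edgeR, DESeq2 and limma-voom, while 10.3% of all genes tested were higher and 11.0% lower in edgeR. An unadjusted p under 0.05 in edgeR was found for 0 of the 14, and over all 11092 genes tested for 2071 higher and 2041 lower. *Plk1*, which drives centrosome maturation and mitotic entry, had 283, 252 and 219.6 CPM with Vehicle and 193, 272 and 236 CPM with AG636. Treated replicate 1 was below all Vehicle mice and the other two lay among them, and the log2 fold change was -0.11 (SE 0.15, edgeR adjusted p = 0.639). *Aurka*, the centrosomal Aurora kinase, had 91.3, 85.9 and 83.0 CPM with Vehicle and 80.3, 107 and 85.7 CPM with AG636, with a log2 fold change of 0.07 (SE 0.14, edgeR adjusted p = 0.757). The groups overlapped for *Aurka* too. The median of these 2 kinases was -0.02, and 0.07 with library size alone.

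Over the checkpoint genes the median was 0.05. *Bub3*, which carries BUB1 and BUBR1 to kinetochores, had 317, 309.9 and 296 CPM with Vehicle and 285, 358 and 310.0 CPM with AG636, and its log2 fold change was 0.05 (SE 0.12, edgeR adjusted p = 0.799). Treated mice spanned the Vehicle range on both sides. *Bub1*, a kinase of the outer kinetochore, had 38.2, 27.3 and 39.3 CPM with Vehicle and 35.9, 26.4 and 25.1 CPM with AG636, with a log2 fold change of -0.26 (SE 0.21, edgeR adjusted p = 0.394). *Bub1b*, which encodes BUBR1 of the mitotic checkpoint complex, had 124, 108 and 127 CPM with Vehicle and 91.3, 113 and 126 CPM with AG636, with a log2 fold change of -0.12 (SE 0.15, edgeR adjusted p = 0.596). For both genes the groups overlapped. *Mad2l1*, the checkpoint protein that binds CDC20, and *Ttk*, the kinase MPS1, had log2 fold changes of 0.18 and 0.17, and the 3 treated mice exceeded all Vehicle mice for *Mad2l1* only.

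The 3 genes of the APC/C and securin class all had positive values that did not pass the test. *Cdc20*, the activator of the APC/C in metaphase, had 247, 249 and 210.2 CPM with Vehicle and 207, 264 and 245 CPM with AG636. Its groups overlapped, with a log2 fold change of 0.02 (SE 0.13, edgeR adjusted p = 0.927), and its exons overlap *Elovl1* on the opposite strand (3557 counts against 7845). *Ube2c*, the ubiquitin-conjugating enzyme of the APC/C, and *Pttg1*, securin, had log2 fold changes of 0.13 and 0.27 (adjusted p = 0.552 and 0.230 in edgeR).

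For the chromosomal passenger complex, which corrects faulty attachments at centromeres, the median log2 fold change of the 4 genes was 0.13. *Birc5*, survivin, had 355, 339.8 and 315 CPM with Vehicle and 383, 377 and 334 CPM with AG636, and a log2 fold change of 0.11 (SE 0.11, edgeR adjusted p = 0.482). Treated replicates 1 and 2 were above all Vehicle mice, and replicate 3 was not. *Aurkb*, the kinase of the complex, had 51.0, 41.5 and 58.5 CPM with Vehicle and 63.9, 77.3 and 50.4 CPM with AG636, and a log2 fold change of 0.35 (SE 0.19, edgeR adjusted p = 0.208) whose 95% interval ran from -0.07 to 0.77. *Incenp*, its scaffold, and *Cdca8*, borealin, had log2 fold changes of 0.15 and 0.07.

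All 8 centromere and kinetochore genes had positive log2 fold changes, from 0.05 to 0.41 (median 0.25), and 1 passed the test. Further centromere and kinetochore genes, within the other G2/M and mitosis genes described below, had both positive and negative values. The gene that rose was *Cenpf*, on chromosome 1 from 189640606 to 189688086, a large protein of the outer kinetochore that accumulates in G2. It had 166, 178 and 187 CPM with Vehicle and 219, 249.9 and 236 CPM with AG636, with means of 177 ± 10.6 and 235 ± 15.7 CPM (SD, n = 3). The groups were apart, and the log2 fold change was 0.41 (SE 0.11, edgeR adjusted p = 0.0301). *Cenpe*, the kinetochore motor that brings chromosomes to the plate, had 192, 199.6 and 202 CPM with Vehicle and 196, 253 and 213 CPM with AG636. Only AG636 replicates 2 and 3 were above the Vehicle mice, and the log2 fold change was 0.16 (SE 0.12, edgeR adjusted p = 0.388). *Cenpa*, the centromeric histone H3 variant, had a log2 fold change of 0.34 (SE 0.16, edgeR adjusted p = 0.156). The NDC80 complex, which holds microtubule ends, was represented by *Spc25* (log2 fold change 0.34), *Ndc80* (0.30), *Nuf2* (0.21) and *Spc24* (0.05), of which *Spc25* and *Nuf2* had groups that did not overlap and adjusted p of 0.103 and 0.223 in edgeR. *Knstrn*, kinastrin of the spindle and kinetochore, had a log2 fold change of 0.20.

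Spindle motors and microtubule proteins had the highest class median, 0.43 over 8 genes, and 3 of them rose. *Nusap1*, on chromosome 2 from 119618298 to 119651244, encodes a protein that bundles microtubules around chromosomes. It had 93.1, 104 and 91.1 CPM with Vehicle and 129.6, 166 and 163 CPM with AG636, with means of 96.1 ± 7.09 and 153 ± 20.3 CPM (SD, n = 3). No value of one group fell within the other, and treated replicate 1 was the nearest to the Vehicle mice. The log2 fold change was 0.67 (SE 0.14, edgeR adjusted p = 0.0106), the lowest adjusted p of the 50 genes. Exons of *Nusap1* overlap *Oip5* on the opposite strand, which had 1009 counts against 4035.

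*Kif2c*, on chromosome 4 from 117159639 to 117182639, encodes MCAK, a kinesin that takes microtubule ends apart at centromeres. It had 42.3, 31.1 and 44.1 CPM with Vehicle and 54.4, 61.7 and 55.5 CPM with AG636, a log2 fold change of 0.55 (SE 0.17, edgeR adjusted p = 0.0403) with groups that did not overlap. Vehicle replicate 2 was the lowest of the 6 mice for this gene. *Ckap2l*, on chromosome 2 from 129268210 to 129297212, a spindle protein needed for accurate division, had 89.1, 74.2 and 73.3 CPM with Vehicle and 98.1, 112 and 108 CPM with AG636. Its groups were apart, with the highest Vehicle mouse at 89.1 CPM and the lowest treated mouse at 98.1 CPM, and the log2 fold change was 0.43 (SE 0.13, edgeR adjusted p = 0.0426). *Tpx2*, which activates Aurora A on spindle microtubules, had 163, 146 and 127 CPM with Vehicle and 162, 208 and 159 CPM with AG636. AG636 replicate 2 alone exceeded all Vehicle mice, and the log2 fold change was 0.28 (SE 0.15, edgeR adjusted p = 0.196). *Ckap2*, a microtubule stabilizer, had a log2 fold change of 0.67 (SE 0.22, edgeR adjusted p = 0.0545), just outside the threshold in edgeR and inside it in DESeq2 and limma-voom. *Kif4*, a chromokinesin, had one of 0.43 (SE 0.18, edgeR adjusted p = 0.113), and its exons overlap those of *Pdzd11* on the opposite strand (851 counts against 1212). *Kif11*, the motor that separates the spindle poles, and *Hmmr*, a spindle pole protein, had log2 fold changes of 0.06 and -0.04, the latter 0.05 with library size alone.

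The central spindle and cytokinesis class held genes on both sides of 0, with 1 of 6 past the threshold and a median of 0.26. *Kif23*, on chromosome 9 from 61915905 to 61946774, encodes the kinesin of the centralspindlin complex. It had 69.0, 66.1 and 76.1 CPM with Vehicle and 85.2, 115 and 104 CPM with AG636. All treated mice exceeded the Vehicle mice, and the log2 fold change was 0.53 (SE 0.14, edgeR adjusted p = 0.0288). *Racgap1*, its partner in centralspindlin, had a log2 fold change of 0.33 (SE 0.13, edgeR adjusted p = 0.0879) with groups that did not overlap. *Prc1*, which crosslinks antiparallel microtubules of the midzone, had 182, 151 and 139 CPM with Vehicle and 158, 196 and 184 CPM with AG636, and a log2 fold change of 0.19 (SE 0.14, edgeR adjusted p = 0.346). Its Vehicle replicate 1 was above treated replicate 1. *Ect2*, the exchange factor that activates RhoA at the cleavage furrow, had a log2 fold change of 0.33 (95% interval -0.08 to 0.74), and *Anln*, anillin of the contractile ring, had one of -0.03 that was 0.06 with library size alone. *Kif20a*, a kinesin of the midzone, had the lowest value of the 50 genes, a log2 fold change of -0.42 (SE 0.17, edgeR adjusted p = 0.106) with all treated mice below all Vehicle mice. Its exons overlap *Cdc23* on the opposite strand, which had 2267 counts against 1087.

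Condensin subunits had values on both sides of 0. *Ncapd2*, on chromosome 6 from 125168007 to 125191701, and *Ncaph*, on chromosome 2 from 127103809 to 127133954, both non-SMC subunits of condensin I, passed the test, while the other 5 genes of the class, chromosome structure genes included, had negative values that did not. *Ncapd2* had 326, 319.9 and 288 CPM with Vehicle and 403, 446 and 379 CPM with AG636, a log2 fold change of 0.39 (SE 0.11, edgeR adjusted p = 0.0345). *Ncaph* had 60.8, 46.4 and 65.8 CPM with Vehicle and 72.2, 87.2 and 85.1 CPM with AG636, a log2 fold change of 0.50 (SE 0.16, edgeR adjusted p = 0.0484). Neither gene had overlapping groups. The SMC ATPases that condensin I shares with condensin II had negative values. *Smc2* had 402, 347 and 344 CPM with Vehicle and 317, 313 and 287 CPM with AG636, and *Smc4* had 699.6, 686 and 636 CPM with Vehicle and 565, 609.8 and 528 CPM with AG636. For both, every treated mouse was below every Vehicle mouse, and the log2 fold changes were -0.25 (SE 0.11, edgeR adjusted p = 0.130) and -0.25 (SE 0.11, edgeR adjusted p = 0.117). *Ncapg*, the third non-SMC subunit of condensin I, had one of -0.21 (SE 0.14, edgeR adjusted p = 0.297).

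*Top2a*, the topoisomerase that untangles sister chromatids, had 879, 992 and 836 CPM with Vehicle and 767, 831 and 809 CPM with AG636. All treated values were below all Vehicle values, by 831 CPM against 836 CPM at the nearest, and the log2 fold change was -0.17 (SE 0.11, edgeR adjusted p = 0.274). *Mki67*, which encodes Ki-67, a coat protein of mitotic chromosomes, had a log2 fold change of -0.15 (SE 0.12, edgeR adjusted p = 0.418) with overlapping groups. The class median was -0.17, and -0.08 with library size alone.

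Pairs of related genes were compared by the log2 ratio of their CPM in each mouse, 5 pairs in all. *Ccnb2* over *Ccnb1* had log2 ratios of -0.34, -0.24 and -0.02 in the Vehicle mice and 0.50, 0.13 and 0.49 in the AG636 mice. The ratio was thus above all Vehicle values in each treated mouse, a difference of 0.57 (exact permutation p = 0.1, 0.333 after Benjamini-Hochberg adjustment over the 5 pairs). *Cdc25b* over *Cdc25c* differed by 0.58 (exact permutation p = 0.2), with one treated mouse among the Vehicle values. *Aurkb* over *Aurka* differed by 0.28 (exact permutation p = 0.2) and *Bub1b* over *Bub1* by 0.13 (exact permutation p = 0.7), both with overlap. The ratio of *Smc4* to *Smc2*, which bind each other in equal number, was 0.89 ± 0.09 on the log2 scale with Vehicle and 0.89 ± 0.06 with AG636 (SD, n = 3), a difference of 0.00 (exact permutation p = 1).

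Differences between mice ran across many of the genes. AG636 replicate 2 had the highest CPM of the 6 mice for 25 of the 50 genes, and Vehicle replicates 2 and 3 had the lowest for 15 and 13. Against the Vehicle mean, 39 genes were above in AG636 replicate 2, 32 in replicate 3 and 30 in replicate 1, while Vehicle replicate 1 had 37 above. The median log2 ratio to the Vehicle mean was 0.09, 0.27 and 0.08 in the treated mice and 0.07, -0.06 and -0.05 in the Vehicle mice. Summed over the 50 genes, the level was 8576, 8064 and 7945 CPM with Vehicle and 8083, 9226 and 8486 CPM with AG636, so the total overlapped between the groups although 9 single genes rose.

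**Figure D4:**
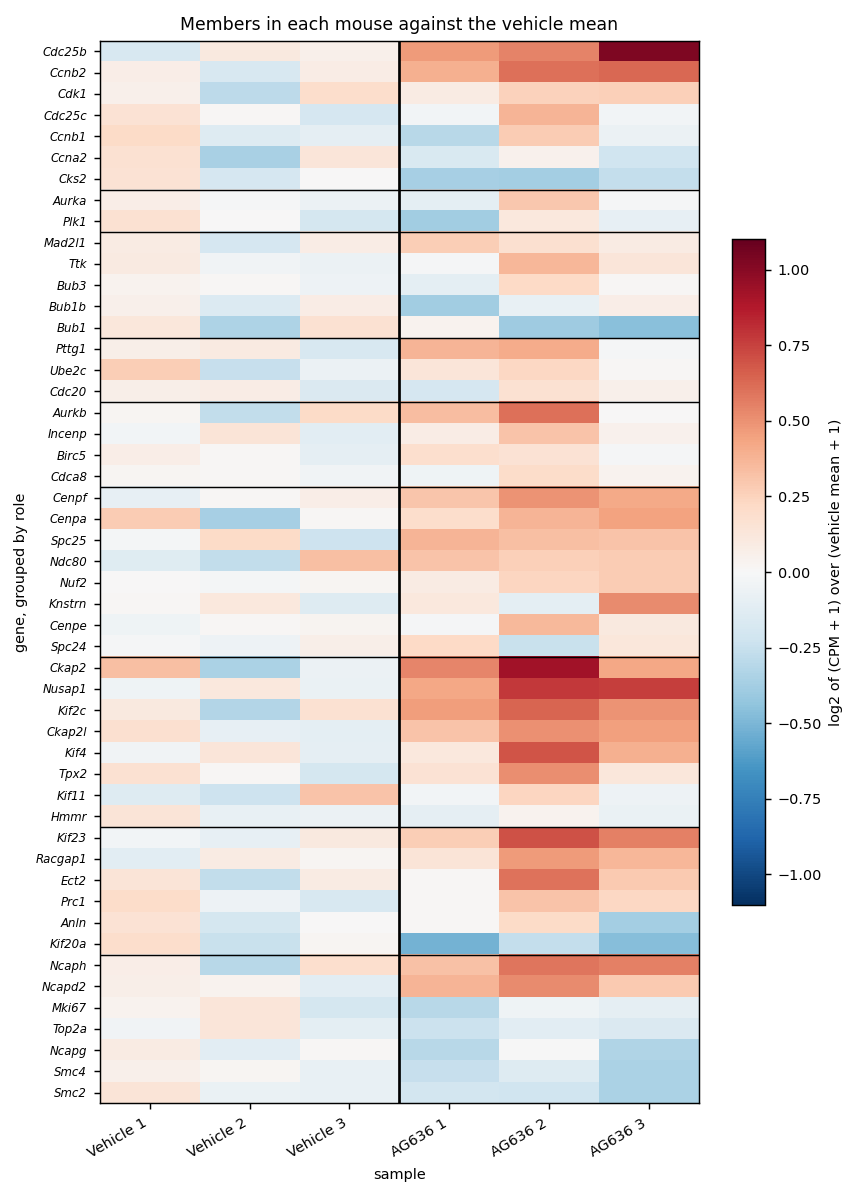
Log2 ratio of CPM + 1 to the mean of the Vehicle group + 1 for the 50 genes in each mouse, with horizontal lines between role classes and a vertical line between the groups. AG636 replicate 2 is the highest mouse for 25 genes.

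Other genes of the same pathways were read from lists of related genes. Among 77 further G2/M and mitosis genes, 3 rose (3.90%, against 10.3% of all genes tested) and 1 fell (1.30%, against 11.0%). Their median log2 fold change was 0.12, and 9 rose and 0 fell with library size alone. *Kif18b*, a kinesin of astral microtubules, had 6.78, 7.98 and 6.48 CPM with Vehicle and 16.8, 15.7 and 15.5 CPM with AG636, a log2 fold change of 1.16 (SE 0.21, edgeR adjusted p = 0.00685). The treated values were all above 15 CPM and the Vehicle values all under 8 CPM. *Cdkn3*, a phosphatase that acts on CDKs, rose by 0.62 on the log2 scale (adjusted p = 0.0419 in edgeR), and *Tubb4b*, a beta tubulin, had a log2 fold change of -0.43 (SE 0.13, edgeR adjusted p = 0.0378). *Gtse1*, a spindle protein named only after its values were seen, rose by 0.75 (adjusted p = 0.0426 in edgeR). Of 16 core subunits and adaptors of the APC/C, 1 fell (6.25%, against 11.0% of all genes tested). This was *Ube2s*, the enzyme that extends the ubiquitin chains of the APC/C, with a log2 fold change of -0.41 (SE 0.11, edgeR adjusted p = 0.0290). Next in that list were *Anapc16* and *Anapc1*, subunits with log2 fold changes of 0.59 and -0.39 (adjusted p = 0.0554 and 0.0820 in edgeR). Of 10 cohesin genes 1 fell (10%, against 11.0% of all genes tested). It was *Wapl*, which releases cohesin from chromosomes, with a log2 fold change of -0.49 (SE 0.13, edgeR adjusted p = 0.0291). *Pds5a* and *Rad21*, a regulator and the kleisin of cohesin, had log2 fold changes of -0.28 and 0.16. These counts were unsteady: among the 77 genes 1 rose without Vehicle replicate 2, AG636 replicate 2 or AG636 replicate 3, the count of 1 for the APC/C was 2 without Vehicle replicate 3 and 0 without any other single mouse, and the count of 1 for cohesin was 0 without Vehicle replicate 1, AG636 replicate 1 or AG636 replicate 3.

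Regulators of G2/M transcription differed from each other. Of 22, 2 rose (9.09%, against 10.3% of all genes tested) and 1 fell (4.55%, against 11.0%). *Rbl2*, which encodes p130 of the repressive DREAM complex, had 42.4, 43.3 and 42.6 CPM with Vehicle and 83.9, 103 and 86.5 CPM with AG636, a log2 fold change of 1.09 (SE 0.13, edgeR adjusted p = 0.00242). *E2f7*, an atypical E2F repressor, had 28.5, 33.0 and 40.3 CPM with Vehicle and 62.9, 62.5 and 68.7 CPM with AG636, a log2 fold change of 0.93 (SE 0.16, edgeR adjusted p = 0.00570). *Mybl2*, which encodes B-MYB, the activating partner of MuvB, had 98.4, 110.0 and 97.8 CPM with Vehicle and 70.5, 73.6 and 60.8 CPM with AG636, a log2 fold change of -0.58 (SE 0.13, edgeR adjusted p = 0.0143). The groups were apart for all 3 genes, which had the lowest adjusted p of the 22. Over the 22 the median log2 fold change was -0.005, with 11 positive and 11 negative values. *Foxm1*, the forkhead activator of G2/M genes, had 37.1, 49.3 and 48.9 CPM with Vehicle and 51.8, 62.1 and 56.6 CPM with AG636. All treated values were higher, and the log2 fold change of 0.33 (SE 0.16, edgeR adjusted p = 0.154) did not pass the threshold. Of the 22, 0 fell without AG636 replicate 3, and 2 fell without Vehicle replicate 2 or AG636 replicate 2.

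A mixed list of inhibitors, arrest-associated genes and checkpoint kinases held 18 genes, not all of them specific to G2/M. Of these, 8 rose (44.4%, against 10.3% of all genes tested) and 0 fell (against 11.0%), with a median log2 fold change of 0.69. In edgeR, 2 had negative values at an unadjusted p under 0.05, and DESeq2 and limma-voom also gave 0 lower. The 8 were *Cdkn1a*, *Cdkn1c*, *Gadd45a*, *Gadd45g*, *Ccng1*, *Ccng2*, *Btg1* and *Btg2*. The kinases *Wee1*, *Pkmyt1*, *Chek1*, *Chek2*, *Atm* and *Atr* did not pass the test. *Ccng2*, cyclin G2, which is associated with arrest, had 6.06, 8.50 and 8.78 CPM with Vehicle and 34.8, 32.4 and 45.3 CPM with AG636, a log2 fold change of 2.27 (SE 0.22, edgeR adjusted p = 0.00202). *Ccng1*, a p53 target, had 84.9, 80.7 and 78.1 CPM with Vehicle and 153, 135 and 154 CPM with AG636, a log2 fold change of 0.86 (SE 0.12, edgeR adjusted p = 0.00320). *Gadd45g*, a stress-induced inhibitor of CDK1, had a log2 fold change of 1.20 (SE 0.19, edgeR adjusted p = 0.00492), and *Cdkn1a*, p21, had 24.1, 54.5 and 63.3 CPM with Vehicle and 87.3, 86.8 and 106 CPM with AG636, one of 0.98 (SE 0.28, edgeR adjusted p = 0.0353). In each of these 4 genes all treated mice exceeded all Vehicle mice. The kinases that hold back CDK1 gave other values. *Wee1* had 58.8, 69.1 and 61.0 CPM with Vehicle and 69.9, 50.9 and 62.5 CPM with AG636, a log2 fold change of -0.05 (SE 0.15, edgeR adjusted p = 0.852) that was 0.04 with library size alone, and *Chek1*, which acts on CDC25, had 25.3, 23.4 and 23.2 CPM with Vehicle and 29.3, 20.2 and 19.1 CPM with AG636, one of -0.07 (SE 0.20, edgeR adjusted p = 0.823) that was 0.02 with library size alone. Both had overlapping groups. Without AG636 replicate 3, the count of 8 was 5.

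Genes of DNA replication, which act earlier in the cycle, showed the other direction. Of 49 tested, 9 fell (18.4%, against 11.0% of all genes) and 0 rose, and 0 had a positive value at an unadjusted p under 0.05 in edgeR, with 0 higher in DESeq2 and limma-voom too. The median log2 fold change was -0.21, and 43 of the 49 values were negative, against 14 of the 50 mitosis genes and 5291 of all 11092 genes tested. *Mcm10*, an initiation factor, had 104, 84.8 and 88.8 CPM with Vehicle and 64.8, 55.3 and 50.8 CPM with AG636, a log2 fold change of -0.70 (SE 0.14, edgeR adjusted p = 0.0115), and *Orc2*, of the origin recognition complex, and *Pold2*, of polymerase delta, had -0.79 (SE 0.17, edgeR adjusted p = 0.0122) and -0.63 (SE 0.14, edgeR adjusted p = 0.0135). The summed CPM of the 50 mitosis genes divided by that of the replication genes was 0.994, 1.015 and 1.003 in the Vehicle mice and 1.04, 1.39 and 1.33 in the AG636 mice. All treated ratios were above all Vehicle ratios, with AG636 replicate 1 the nearest to the Vehicle mice. This difference between the lists was not tested. The count of 9 replication genes was 3 without Vehicle replicate 1, 4 without Vehicle replicate 2 and 0 without AG636 replicate 3.

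**Figure D5:**
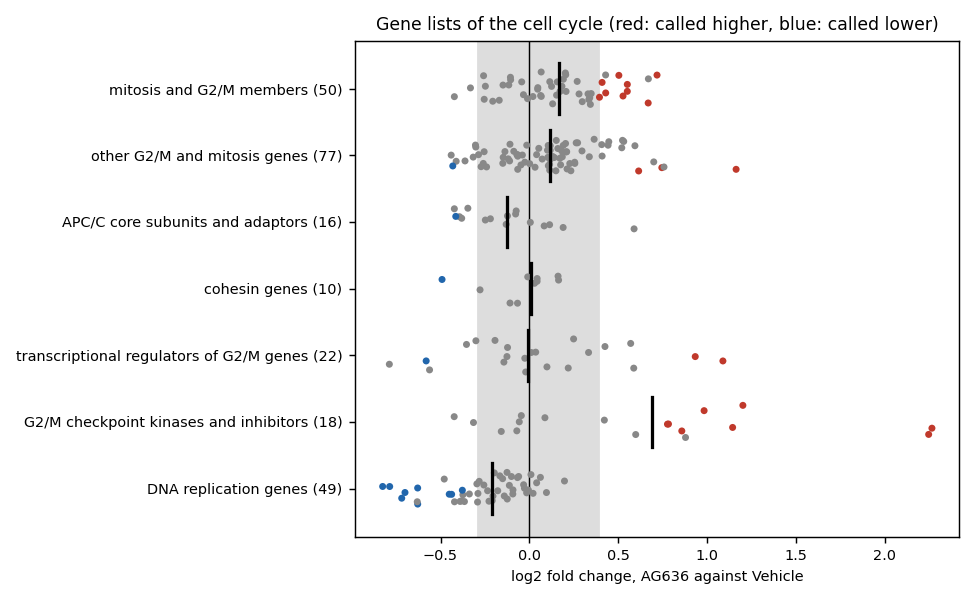
Log2 fold change of every tested gene in the mitosis and G2/M set and in 6 related lists (number tested in brackets), with black bars at list medians, a gray band from the lower to the upper quartile of all genes tested (-0.29 to 0.39), and red or blue points for genes called higher or lower. The median is 0.16 for the mitosis and G2/M genes and -0.21 for the replication genes.

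Markers of blood cell types, those of the sorted cells included, differed between the same libraries. Whether this RNA came from the leukemic cells or from other cells in the sort was not tested. Of 12 mature neutrophil markers 9 were higher (75%, against 10.3% of all genes tested), and all 12 had unadjusted p under 0.05 in edgeR and positive values. Their summed level was 1101 to 2489 CPM with Vehicle and 3052 to 6124 CPM with AG636. *Itgam*, which encodes the CD11b used in the sort, had 12.1, 18.3 and 27.0 CPM with Vehicle and 60.1, 31.3 and 41.2 CPM with AG636, a log2 fold change of 1.21 (SE 0.31, edgeR adjusted p = 0.0219) with no overlap of the groups. *S100a8*, another of these markers, had 484, 1135 and 1339 CPM with Vehicle and 3150.0, 1328 and 1457 CPM with AG636, and with overlapping groups it did not pass the test. *Kit*, the other sorting marker, had 43.1, 31.8 and 41.0 CPM with Vehicle and 46.3, 37.3 and 44.7 CPM with AG636, and its log2 fold change of 0.15 (SE 0.17, edgeR adjusted p = 0.550) did not pass the test. Of 9 monocyte and macrophage markers tested 3 were higher (33.3%, against 10.3%), *Cd68* among them with a log2 fold change of 1.57. Positive values were found for 8 of the 9, with a median of 0.85. The sum was 71.1 to 108 CPM with Vehicle and 172 to 240.2 CPM with AG636. Of 9 erythroid markers 2 were lower (22.2%, against 11.0% of all genes tested), with sums of 1701 to 4814 CPM with Vehicle and 1971 to 3289 CPM with AG636. Negative values were found for 8 of the 9, with a median of -0.84, and *Hbb-bs* had a log2 fold change of 0.11 (SE 0.33, edgeR adjusted p = 0.842). Immature myeloid markers gave 3 higher of 10 tested (30%, against 10.3%), with sums over all 12 listed of 2737 to 5392 CPM with Vehicle and 2459 to 5837 CPM with AG636. Their median log2 fold change was 0.43, with 9 positive values, and the genes past the test were *Fcgr3* at 0.87, *Ptprc* at 0.65 and *Meis1*, with the largest value of these 3 (adjusted p = 0.00795 in edgeR). *Fcgr3* and *Ptprc* are not limited to immature cells, and *Kit*, *Cd34* and *Myb* did not pass the test. *Mpo*, the most abundant gene of this list and the 1 with a negative value, had a log2 fold change of -0.65 (SE 0.40, edgeR adjusted p = 0.266). Immediate early genes, which are induced quickly by stimuli, gave 1 higher of 9 tested (11.1%, against 10.3%), *Jun*. All 9 had positive values, with a median of 0.56, and 3 had an unadjusted p under 0.05 in edgeR. Sums over all 12 listed were 257 to 667 CPM with Vehicle and 625 to 688 CPM with AG636. B and T cell markers summed to 7.31 to 20.1 CPM with Vehicle and 18.6 to 20.8 CPM with AG636, with 1 gene of 10, *Cd79b*, abundant enough to test. No marker in these lists was at 0 in all samples. Mitochondrial genes took 2.92% to 4.50% of the counts. The part of these markers in the changes of the 9 mitosis genes was not tested.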

How the data were processed

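RNA-seq of sorted I1DN AML cells from 3 Vehicle and 3 AG636 mice was used. The authors deposited 1 table of counts of reads per gene, without normalization. From the study's methods and the submitters' processing notes, libraries were made with a QuantSeq 3′ kit, checked with FastQC, trimmed with cutadapt (1.9.1 in the notes), mapped to mm10 with HISAT2 2.0.4 and counted with featureCounts of Subread (1.5.0-p3 in the notes). The methods name other releases of cutadapt and Subread. Annotation release, strand setting and the handling of multi-mapping reads are not given in the sources used here, and no molecular identifiers are described, so count floors cover counting error only.

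Genes with too few counts were removed (filterByExpr, minimum 10 counts and 15 in total), leaving 11092 of 54838. Libraries were scaled with TMM and compared by the quasi-likelihood test of edgeR 4.0.16 (R 4.3.3), with Benjamini-Hochberg adjustment over all genes tested. A gene was called at an adjusted p under 0.05. The standard error (SE) is the size of the log2 fold change over the square root of F. For all genes, 95% intervals use a t distribution with 10.1 degrees of freedom, the median of residual plus prior degrees of freedom in the fit. CPM use TMM-scaled totals. Symbols were found for 54723 gene identifiers. Single CPM and ratios were compared with exact two-sided permutation tests. Replicates of a group differed by a chi-square of 6.67 to 15.9 per degree of freedom, well above sampling noise, and each counted as 1 sample. Nothing beyond a mouse per sample is stated, so p-values measure the spread between these samples. The test was run on simulated counts with known fold changes. All of these were larger than the changes of the called mitosis genes, so the simulation does not cover calls of that size.

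Members, role classes, related lists and markers were chosen with earlier results of these data known. Values in every mouse are given for genes past the threshold, the gene with the highest mean CPM of each class, 5 pairs of related genes and 7 regulators. From each related list the 3 genes with the lowest adjusted p are named, and from markers *Kit*, *Itgam* and genes with high CPM. Exons were compared with those of other genes for overlaps, which 15 of the 50 genes had, 6 with a partner of more than 10% of their counts. Promoter letters came from RefSeq windows. Alternatives were other scalings, DESeq2 1.42.0, limma-voom (limma 3.58.1), other filters, a replicate block, leaving out each mouse, and an adjusted p under 0.01.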

Additional observations from a re-analysis of the deposited data

How the results depend on the processing

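Over the 50 genes, the count with an adjusted p under 0.05 was 9 higher with the median-of-ratios size factors, 12 with library size alone, 10 with DESeq2, 10 with limma-voom, 7 with no filter on low counts (6 of them among the 9), 9 with at least 10 counts in every sample and 0 with an adjusted p under 0.01, and 0 were lower in each. Under library size alone, 1 gene had groups that did not overlap with AG636 lower, the kinetochore median was 0.34 and the condensin median -0.080, other G2/M genes gave 9 higher and 0 lower, APC/C subunits 1 higher and 0 lower and cohesin 0 lower. *Ccnb1* turned to 0.081, *Hmmr* to 0.047, *Anln* to 0.055, *Wee1* to 0.043 and *Chek1* to 0.017, while the median of all genes tested was 0.12 in place of 0.03. DESeq2 gave 1 higher APC/C subunit and 2 lower regulators, limma-voom 2 lower other G2/M genes. Without a filter, other G2/M genes gave 5 higher and 3 lower, APC/C subunits 1 higher and 2 lower, regulators 2 lower and replication genes 14 lower, and the single gene Cdc20 turned to -0.00769. At an adjusted p under 0.01, other G2/M genes gave 1 higher and 0 lower, APC/C subunits, cohesin, regulators and replication genes 0 lower, and inhibitors and checkpoint kinases 4 higher.

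Correlations between the deviations of same-numbered mice were -0.06, -0.18 and 0.22 for numbers 1, 2 and 3. Those of differently numbered mice ran from -0.38 to 0.36. These values gave no sign of a pairing by number, but with 3 mice per group they cannot exclude one. With a replicate block, 6 of the 50 genes were higher, all 6 among the 9, and 0 lower, APC/C subunits gave 0 lower, and 914 genes were higher and 1046 lower over the whole table.

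Leaving out each mouse in turn, which leaves a group of 2, gave 1 to 7 higher genes among the 50, 5 to 8 with AG636 entirely lower, and medians of 0.052 to 0.27 for the APC/C and securin class, 0.18 to 0.32 for kinetochore genes, -0.039 to 0.20 for the cyclin-CDK module and -0.049 to 0.12 for the checkpoint. Other G2/M genes gave 1 to 3 higher and 0 to 2 lower, APC/C subunits 0 to 2 lower, cohesin 0 to 1 lower, regulators 0 to 2 lower, inhibitors and checkpoint kinases 5 to 9 higher and replication genes 0 to 8 lower. Genes whose sign turned were *Ccnb1* (-0.18 to 0.12), *Kif11* (-0.053 to 0.23), *Hmmr* (-0.098 to 0.015), *Anln* (-0.18 to 0.12), *Wee1* (-0.15 to 0.068), *Bub3* (-0.049 to 0.12), *Cdc20* (-0.078 to 0.11), *Plk1* (-0.23 to 0.010), *Spc24* (-0.048 to 0.17), *Cdc25c* (-0.039 to 0.20), *Aurka* (-0.065 to 0.15), *Cdca8* (-0.0079 to 0.12) and *Chek1* (-0.29 to 0.046). Fewer mice enter these fits, and no other cause was tested.

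With 3 mice per group and a median SE of 0.14, changes well under the 0.39 of the smallest called gene could not be told from the spread between mice. *Cdc25c*, with 299 counts, had the largest SE, 0.24.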
